A study of Homo sapiens with 5 samples.

Results

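HHEX and 7 liver-enriched transcription factors, HNF4A, FOXA1, FOXA2, FOXA3, PROX1, ONECUT1 and CEBPA, were followed in human embryonic stem cells (hESC) that carried either wt or mutant miR-122. The members were taken by gene symbol. A probe set of their own was named in the platform annotation for 6 of the 8 genes, 9 probe sets of 19064 that name a single gene. HHEX had 2 probe sets, FOXA2 had 3, and FOXA1, PROX1, ONECUT1 and CEBPA had 1 each. HNF4A and FOXA3 were not analysed here. The cells were HES2, an established hESC line. They were transduced with a lentiviral vector that encodes the human miR-122 precursor under the constitutive H1 promoter, next to a red fluorescent reporter. The control vector was the same but for mutations in the seed of the miRNA, so every group carried a vector. Both cultures then differentiated spontaneously for 2 weeks in KO medium, off feeder cells and without bFGF. The Affymetrix expression arrays comprised 3 of mutant and 2 of wt miR-122-expressing cells, each an independent experiment according to the methods. No untransduced or undifferentiated cells were on these arrays, and no sorting of transduced cells is given in the sources used here.

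miR-122 is a miRNA of hepatocytes. It binds mRNAs mainly through its seed, the bases that pair with a target. The mature sequence is shown because its seed is what separates the wt from the mutant vector. It lies at chr18:58451088-58451109 on the plus strand of GRCh38.p14 in RefSeq, and the capitals mark the seed, bases 2 to 8.
hsa-miR-122-5p: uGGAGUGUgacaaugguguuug
Of 2545 mature miRNAs in the same table, this was the only 1 with that seed.

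Liver development proceeds through a cascade of transcription factors. FOXA proteins open chromatin in the foregut endoderm, and HHEX, a homeobox factor, is needed for the liver bud to form. PROX1 is required for hepatoblasts to migrate, ONECUT1 (HNF6) acts in hepatoblasts and bile duct cells, and CEBPA and HNF4A drive the genes of mature hepatocytes. None of these factors is confined to liver: HHEX is also made in endothelial and blood progenitors and in thyroid, FOXA2 in the floor plate, PROX1 in lymphatic endothelium, neurons and lens, and CEBPA in fat and myeloid cells.

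The arrays were closely alike, with medians from 6.32 to 6.36 on the log2 scale and correlations across probe sets from 0.995 to 0.997. All 13 measured markers of undifferentiated hESC and 14 of 15 markers of fibroblasts and feeder cells lay above the background level defined below, so signal of both kinds was present in every culture.

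RMA values, the background-corrected and normalized log2 values used here, carry no call of presence. The members were therefore set against 34 probe sets of 30 genes that belong to unrelated adult tissues, such as milk caseins, sperm protamines, taste receptors and olfactory receptors. These had mean values between 2.63 and 5.43, with a median of 3.71 and a 90th percentile of 5.0. A probe set at or below 5.0 is called near background here, and one between 5.0 and the median of all probe sets, 6.35, is called dim. Each probe set has a background of its own, so this level is a guide and not a limit of detection.

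By this measure 5 of the 9 member probe sets lay near background, 4 were dim and 0 were above the median. Near background were the pair for HHEX, that of FOXA1, that of ONECUT1 and the dimmest of FOXA2. The brightest and the middle probe set of FOXA2 were dim, with means over the 5 arrays of 5.54 and 5.50. PROX1, at 5.05, stood just over the limit, and CEBPA, at 6.26, just under the median. Values near background understate a fold change. These are bulk cultures, in which fewer cells of a type and less RNA per cell cannot be told apart.

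**Figure D1:**
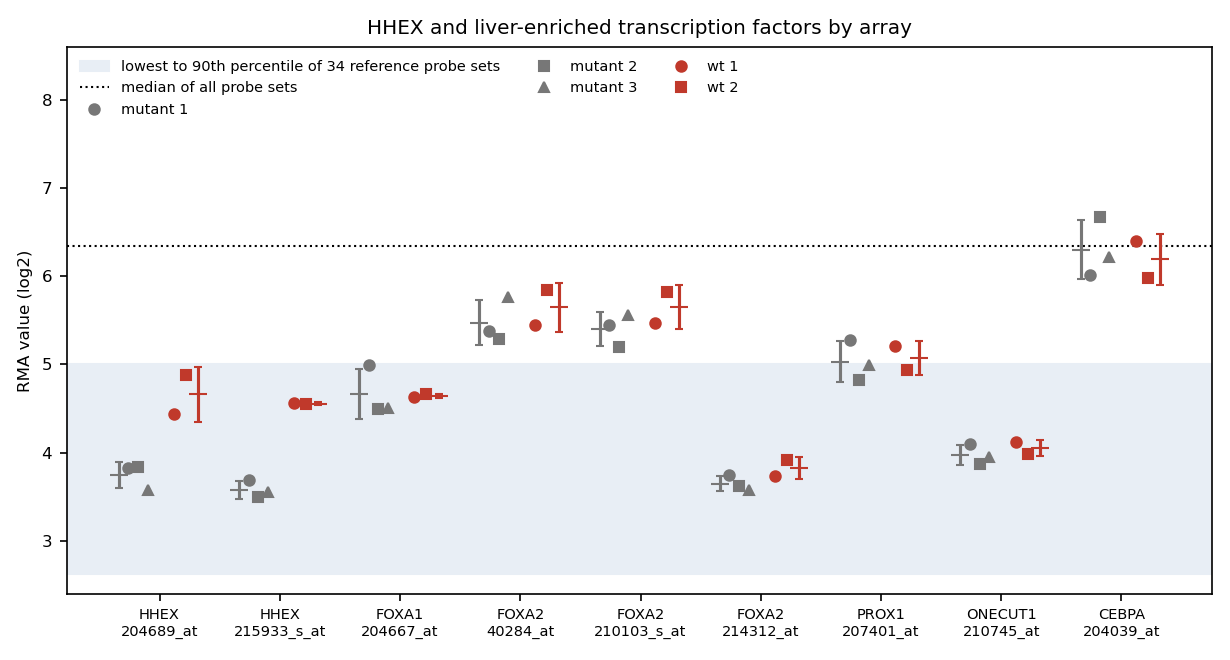
RMA values (log2) of the 9 member probe sets. The probe sets carry their Affymetrix names and run from bright to dim within a gene. Symbols are single arrays (grey for 3 mutant, red for 2 wt), with each group's mean and SD beside them, the shaded band runs from the lowest value to the 90th percentile (5.0) of 34 reference probe sets, and the dotted line is the median of all probe sets (6.35). HHEX stands apart between the groups inside the band, while the groups of the other 7 probe sets overlap.

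HHEX was higher in wt miR-122-expressing cells on each of its probe sets, by close to 2-fold, and stayed within the range of the reference genes in both groups. On the dimmer probe set the mutant arrays read 3.69, 3.49 and 3.55 (replicates 1 to 3), and the wt arrays 4.56 and 4.55. On the brighter one the mutant arrays read 3.83, 3.84 and 3.58, and the wt arrays 4.44 and 4.88. The groups did not overlap on either, with a gap of 0.86 between the nearest arrays on the first and 0.60 on the second. The wt arrays lay 0.017 apart on the dimmer and 0.44 apart on the brighter probe set, which has the wider error.

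On the dimmer probe set HHEX rose by 0.98 on the log2 scale, a ratio of 1.97 with a 95% interval from 1.72 to 2.26 (adjusted p = 0.0228 from limma). On the brighter one the ratio was 1.88, with an interval from 1.5 to 2.36, and did not pass the adjusted threshold of 0.05 (adjusted p = 0.0518 from limma). With the probe sets averaged before the fit, the log2 difference of HHEX was 0.95 (SE 0.0919, adjusted p = 0.016 from limma). The call on the dimmer probe set was lost on leaving out any of the 5 arrays, with adjusted p from 0.0563 to 0.19 in the reduced fits of limma, while the log2 difference there stayed between 0.94 and 1.04. That on the brighter one ranged from 0.69 without wt replicate 2 to 1.13 without wt replicate 1.

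The size of the HHEX difference can be read against the rest of the array. Of all 22215 probe sets tested, 0.383% were called in either direction and 0.194% were called higher in wt, and the 9 member probe sets held 1 call. Non-overlapping groups were much commoner, at 32.7% of all probe sets, 20.3% with wt above mutant, and 2 of the 9 member probe sets were of this kind. Among all probe sets, 10 had a higher wt minus mutant difference than the dimmer HHEX probe set and 16 a higher one than the brighter. HHEX was among the genes the study picked from these same arrays as upregulated, so its high rank is not independent evidence. The study also measured HHEX by quantitative RT-PCR, on the RNA samples that went onto the arrays, and reported it as upregulated. By that assay it reported FOXA2, AFP and ALB as not upregulated. At this low level a difference of such size was rare: 7130 probe sets lay at or below 5.0, with a median absolute difference of 0.085. Of these, 4 were called higher and 0 lower by limma. The other 3 called higher besides HHEX were MT1M, a metallothionein, KHDC1L, and ADGRG2, an adhesion receptor. They were named after their values were seen. In the 34 reference probe sets the largest absolute difference was 0.29, 0 were called, and 8 had both wt arrays above the mutant arrays.

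**Figure D2:**
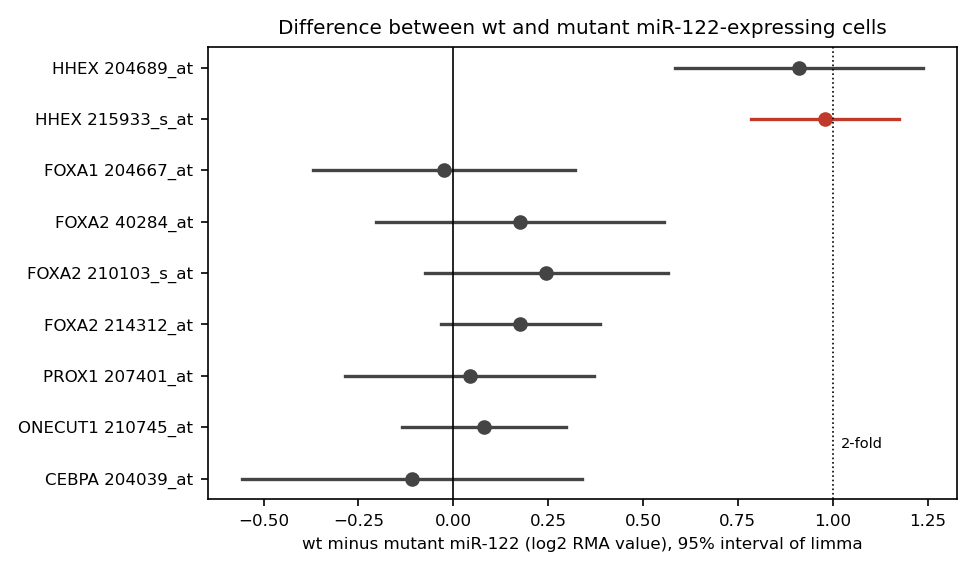
Difference between wt and mutant miR-122-expressing cells (log2 RMA value) for the 9 member probe sets. Points are differences and lines are 95% intervals from limma with 2 wt and 3 mutant arrays, red marks an adjusted p under 0.05, and the dotted line marks a ratio of 2. The intervals of HHEX begin at 0.58 and 0.78, and those of the other 7 probe sets all include 0.

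The genes whose values over the 5 arrays were most like those of HHEX were sought by the root mean square (RMS) difference between mean-centred log2 values. Each gene was set against the mean of the HHEX probe sets. The closest 5 were MT1HL1 (0.101), MT1F (0.102), PTPRZ1 (0.125), MT1H (0.14) and POLR3G (0.141). The probe sets of HHEX differed from each other by an RMS of 0.181. That is a distance between probe sets and not from their mean, so it is not comparable with the 5 values. MT1HL1, MT1F and MT1H are metallothioneins or relatives of them, measured on probe sets that may match several transcripts. PTPRZ1, a receptor phosphatase, and POLR3G, a subunit of RNA polymerase III, are high in undifferentiated hESC. As the 5 genes were picked for likeness to HHEX, their order was set by that choice: both wt arrays lay above every mutant array. With 5 arrays, many genes share such a step, and 20.3% of all probe sets had both wt arrays above the mutant arrays.

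The FOXA factors did not pass the test on any probe set. FOXA2 was at 5.37, 5.28 and 5.76 on the mutant arrays and at 5.45 and 5.85 on the wt arrays by its brightest probe set. On the middle one it was at 5.45, 5.19 and 5.56, and at 5.47 and 5.83. On these probe sets, which the annotation ties to the same accession, mutant replicate 3 was the highest of its group and wt replicate 2 the higher of its own, so the spread within a group exceeded the step between groups. The near-background dimmest probe set did not share this order, with 3.75, 3.62 and 3.58 on the mutant arrays and 3.74 and 3.91 on the wt arrays.

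The log2 differences of FOXA2 were 0.18 (SE 0.164, adjusted p = 0.675 from limma) for the brightest, 0.25 (SE 0.138) for the middle and 0.18 (SE 0.0906) for the dimmest. With the probe sets averaged before the fit it was 0.20, with a 95% interval from -0.07 to 0.46 (adjusted p = 0.438 from limma). On the brightest probe set the difference changed with the arrays kept, from -0.02 when wt replicate 2 was left out to 0.37 when wt replicate 1 was. The same omissions took the middle probe set from 0.07 to 0.42 and the dimmest from 0.09 to 0.26.

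FOXA1, which shares the forkhead DNA-binding domain with FOXA2, was at 5.0, 4.49 and 4.51 on the mutant arrays and at 4.63 and 4.66 on the wt arrays. Mutant replicate 1 stood above the other 4 arrays, which lay close together. The log2 difference was -0.02 (SE 0.149, adjusted p = 0.959 from limma), with an interval from -0.37 to 0.32. It was 0.14 without mutant replicate 1.

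ONECUT1 was at 4.10, 3.87 and 3.95 on the mutant arrays and at 4.12 and 3.98 on the wt arrays, all near background. PROX1 was at 5.28, 4.82 and 4.99 on the mutant arrays and at 5.21 and 4.94 on the wt arrays. For these factors of the hepatoblast stage the wt values fell inside or just beside the mutant range. The log2 differences were 0.08 (SE 0.0935) for ONECUT1 and 0.04 (SE 0.142) for PROX1, with adjusted p of 0.745 and 0.921 from limma. For ONECUT1 it ranged from 0.01 when wt replicate 1 was left out to 0.15 when wt replicate 2 was. For PROX1 it became -0.06 when mutant replicate 2 was left out and -0.09 when wt replicate 1 was.

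CEBPA, the basic leucine zipper factor of metabolic liver genes, had the highest percentile among the members, at 48.7 of all probe sets. It was at 6.01, 6.67 and 6.21 on the mutant arrays and at 6.40 and 5.98 on the wt arrays. The groups overlapped, with mutant replicate 2 the highest array and wt replicate 2 the lowest. The log2 difference was -0.11 (SE 0.194, adjusted p = 0.844 from limma), with an interval from -0.56 to 0.34, and it turned to 0.08 without mutant replicate 2 and to 0.10 without wt replicate 2.

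Over the 7 probe sets other than those of HHEX, 5 had higher and 2 lower means in wt miR-122-expressing cells. Their median log2 difference was 0.08, beside 0.03 for all probe sets and 0.06 for the 34 reference probe sets. None of the 7 passed the adjusted threshold of limma, and 0 had an unadjusted p under 0.05. Their 95% intervals reached from -0.56 to 0.57 at the widest, which as ratios is 0.68 to 1.48. A 2-fold change of the measured value in either direction therefore lay outside every interval, while changes of up to about 1.48-fold did not. For the near-background probe sets this bounds the change in signal and not that of the mRNA.

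The spread between mutant replicates was wide for several factors. The SD of the 3 mutant arrays was 0.33 for CEBPA, 0.29 for FOXA1, 0.26 for the brightest probe set of FOXA2 and 0.23 for PROX1, where the median over all probe sets was 0.09. Ranked by mutant SD among all probe sets, CEBPA was at the 98.7th and FOXA1 at the 97.5th percentile. HHEX had an SD of 0.15 on the brighter probe set, at the 79.9th percentile, and of 0.10 on the dimmer, at the 57.7th.

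**Figure D3:**
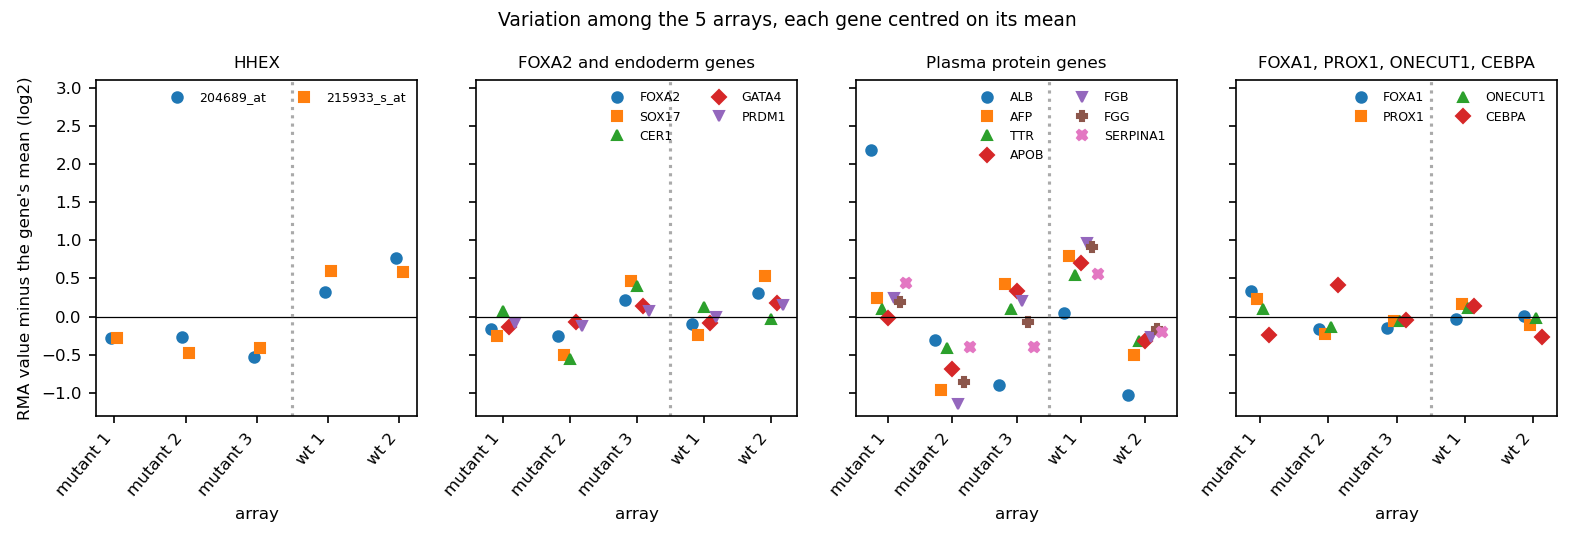
RMA values (log2) of each gene minus its mean over the 5 arrays, for the probe sets of HHEX, for FOXA2 with other endoderm genes, for plasma protein genes, and for FOXA1, PROX1, ONECUT1 and CEBPA. Each symbol is 1 gene (in the first panel 1 probe set) on 1 array, and the dotted line separates 3 mutant from 2 wt arrays. HHEX steps between the groups, while FOXA2 and SOX17 are highest on mutant replicate 3 and wt replicate 2.

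FOXA2 at its brightest probe set had mutant replicate 3 and wt replicate 2 as its highest arrays, and so did 3 more of the 10 measured definitive endoderm genes, while 6 did not. SOX17, a transcription factor of definitive endoderm, was at 5.21, 4.95 and 5.93 on the mutant arrays and at 5.21 and 5.99 on the wt arrays. As for FOXA2, mutant replicate 3 and wt replicate 2 were the highest arrays, and mutant replicate 2 the lowest. GATA4, with 5.15, 5.22 and 5.42 on the mutant and 5.21 and 5.47 on the wt arrays, and PRDM1, with 5.74, 5.70 and 5.89 and then 5.81 and 5.98, had the same arrays on top. CER1, a secreted Nodal and BMP antagonist, did not, with 6.28, 5.64 and 6.61 on the mutant and 6.32 and 6.16 on the wt arrays. The others without that order were HHEX, CXCR4, GATA6, LHX1 and KIT. FOXA2 set the order and is itself counted in the list, and the share of all genes with this order is not given here. SOX17, GATA4, PRDM1 and CER1 were chosen for this description after their values were seen, and no test was made of 5 arrays.

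The definitive endoderm list, to which HHEX and FOXA2 belong, had 10 measured genes. On its brightest probe sets 0 rose and 0 fell by limma after adjustment, with 2 higher and 1 lower at an unadjusted p under 0.05, and 2 by the methods' t-test at its unadjusted threshold. Over all 11963 genes these shares were 8.84% higher and 6.87% lower at an unadjusted p under 0.05 and 12.4% by the t-test, and the counts of the lists below are to be read against them. With the probe sets of each gene averaged, 1 passed, HHEX. Both wt arrays lay above the mutant arrays for 3 of the 10 genes and below them for 1, against 21.5% and 13.4% of all genes. The 3 were HHEX, CXCR4 and KIT. The study named HHEX and CXCR4 as upregulated on these same arrays, so this count and the list's median are not independent evidence. CXCR4, a chemokine receptor of definitive endoderm, was at 6.64, 6.41 and 6.57 on the mutant and at 7.44 and 6.95 on the wt arrays. Its log2 difference was 0.65 (adjusted p = 0.111 from limma). For CXCR4 wt replicate 1 was highest, as on the dimmer HHEX probe set and unlike the brighter, where it was wt replicate 2. GATA6, an endoderm and heart factor, was at 7.23, 7.53 and 7.61 and then 7.07 and 6.87, with a log2 difference of -0.49 (adjusted p = 0.147 from limma). The median difference of the list was 0.15, beside 0.03 for all 11963 genes.

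Of the other liver-enriched transcription factors, 18 of 24 listed were measured. None rose, 1 fell and 17 did not pass by limma, where 0.267% of all genes rose and 0.234% fell. At an unadjusted p under 0.05, 1 was higher and 3 were lower, against 8.84% and 6.87% of all genes. By the methods' t-test 2 passed before adjustment, against 12.4%. Both wt arrays lay above the mutant arrays for 3 genes and below them for 2, against 21.5% and 13.4% of all genes. The median log2 difference was -0.03, and 7 of the 18 lay near background. The gene that fell was TBX3, a T-box repressor that promotes hepatoblast growth and is also made in many other tissues. TBX3 was at 6.96, 7.08 and 7.14 on the mutant arrays and at 6.52 and 6.44 on the wt arrays, apart by more than the spread in either group. It fell by 0.58 on the log2 scale (SE 0.0834, adjusted p = 0.0427 from limma), a call that ended when any array was left out.

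DBP, a PAR leucine zipper factor of clock output in liver, was at 6.23, 6.37 and 6.33 on the mutant and at 6.69 and 6.60 on the wt arrays, 0.33 apart on the log2 scale without passing (adjusted p = 0.134 from limma). The nuclear receptors NR5A2 and NR1I3, the HNF4 paralog HNF4G and the leucine zipper factor HLF were near background, with log2 differences of -0.21, 0.16, -0.05 and 0.18. By comparison, CEBPB, CEBPD, NR2F1, RXRA, XBP1 and NFIL3, which are widely made, were above the median of all probe sets and differed by -0.33 to 0.10.

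Genes that these factors are known to drive in hepatocytes were mostly low as well. Exceptions were AFP, TTR, APOA1, APOA2 and DLK1, above the median of all probe sets, with group means from 7.42 to 8.77. Of 25 measured genes, 14 were near background, 0 rose and 0 fell by limma, and 2 were higher at an unadjusted p under 0.05 (1 by the methods' t-test), against 8.84% of all genes. The smallest adjusted p were those of DLK1, a hepatoblast surface protein related to Notch ligands, RBP4, a retinol carrier, and FGA, a fibrinogen chain, with log2 differences of 0.39, 0.30 and 0.39. CYP7A1, the rate-limiting enzyme of bile acid synthesis, and G6PC1, the glucose-6-phosphatase of gluconeogenesis, had values from 2.43 to 2.66 on all arrays, and their means lay below those of all reference probe sets. The median log2 difference of the list was 0.11, beside 0.03 for all genes and 0.06 for the 30 reference genes.

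The genes for plasma proteins of the fetal liver and yolk sac varied widely between arrays. AFP, alpha-fetoprotein, was at 7.76, 6.56 and 7.95 on the mutant arrays and at 8.30 and 7.01 on the wt arrays. FGB, a fibrinogen chain, was at 6.31, 4.92 and 6.28 and then 7.03 and 5.81. Over all 25 measured genes of the hepatic list, mutant replicate 2 was the lowest array for 13 and wt replicate 1 the highest for 11. That list also holds enzymes and receptors, and 14 of its genes lay near background. The shares of all genes with these arrays lowest or highest are not given here. The dimmer HHEX probe set was also lowest on mutant replicate 2 and highest on wt replicate 1, by 0.017 over wt replicate 2, whereas the brighter one was lowest on mutant replicate 3 and highest on wt replicate 2. ALB, albumin, was at 6.46 on mutant replicate 1 and at 3.24 to 4.31 on the other 4 arrays. FOXA1 and PROX1 were also highest on mutant replicate 1. The plasma protein genes shown were chosen after their values were seen.

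HHEX is not a liver gene alone, so lists of its other sites were read beside it. Of 14 measured endothelial and blood progenitor markers, 0 rose and 0 fell by limma, 3 were higher at an unadjusted p under 0.05 and 0 by the methods' t-test, against 8.84% and 12.4% of all genes. Their mean level was between 5.02 and 5.08 on the mutant arrays and at 5.12 and 5.17 on the wt arrays. That of the reference genes also stepped, from 3.81 to 3.84 on the mutant arrays to 3.85 and 3.89 on the wt arrays. Of the 14 markers 7 lay near background, including PECAM1, CDH5, TIE1 and ERG, and the defining adhesion genes PECAM1 and CDH5 stayed between 3.42 and 4.04. KDR, a receptor of endothelium and its precursors, was at 6.89, 6.86 and 7.03 on the mutant and at 7.05 and 7.50 on the wt arrays (log2 difference 0.35, adjusted p = 0.291 from limma). ROBO4, a guidance receptor of endothelium, at 4.54, 4.58 and 4.43 and then 4.88 and 4.68, had the smallest adjusted p of the list (log2 difference 0.26, adjusted p = 0.244 from limma). TAL1, a factor of blood and endothelial progenitors, was at 5.66, 5.49 and 5.38 and then 5.79 and 5.69 (log2 difference 0.24, adjusted p = 0.326 from limma). KDR, ROBO4, TAL1 and PECAM1 were the 4 of 14 markers with both wt arrays above the mutant arrays, an order that 21.5% of all genes had. Of 5 thyroid markers 0 passed, 0 had an unadjusted p under 0.05, and 3 were near background, with list means from 4.59 to 4.72 on the mutant and at 4.61 and 4.71 on the wt arrays. Among these TSHR, the thyrotropin receptor, and the transcription factors FOXE1 and PAX8 differed by -0.22, 0.14 and 0.11 on the log2 scale. The part of these cells in the HHEX values was not tested.

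Of 13 measured markers of undifferentiated hESC, 5 rose, 0 fell and 8 did not pass by limma, where 0.267% of all genes rose. The 5 calls ended when any array was left out. All 13 had both wt arrays above the mutant arrays, as HHEX did, against 21.5% of all genes. Their mean level ran from 8.25 to 8.39 on the mutant arrays and was 8.86 and 8.85 on the wt arrays. The 5 were DNMT3B, a DNA methyltransferase, JARID2, a Polycomb cofactor, UTF1, a chromatin factor, FGF4, a growth factor, and POLR3G. Several of the 13 were among the genes the study picked from these arrays, so the direction of the list is not independent evidence. The study's text names NANOG, SOX2 and POU5F1, and POU5F1 was listed but not among the 13 measured here. NANOG and SOX2 did not pass, with log2 differences of 0.79 and 0.64 (adjusted p = 0.0588 and 0.0959 from limma). Fibroblast and feeder markers had mean levels of 9.96 to 10.28 on the mutant and 9.59 and 9.81 on the wt arrays. Of these 15, 0 passed by limma, 11 were lower and 0 higher at an unadjusted p under 0.05, and 6 passed the methods' t-test before adjustment, against 6.87% lower and 12.4% of all genes. With the probe sets of each gene averaged, 1 passed by limma. The smallest adjusted p were those of the collagen genes COL5A1 and COL1A1 and of ACTA2, smooth muscle actin, with log2 differences of -0.77, -0.60 and -0.67. The part of either cell type in the values of HHEX or TBX3 was not tested.

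**Figure D4:**
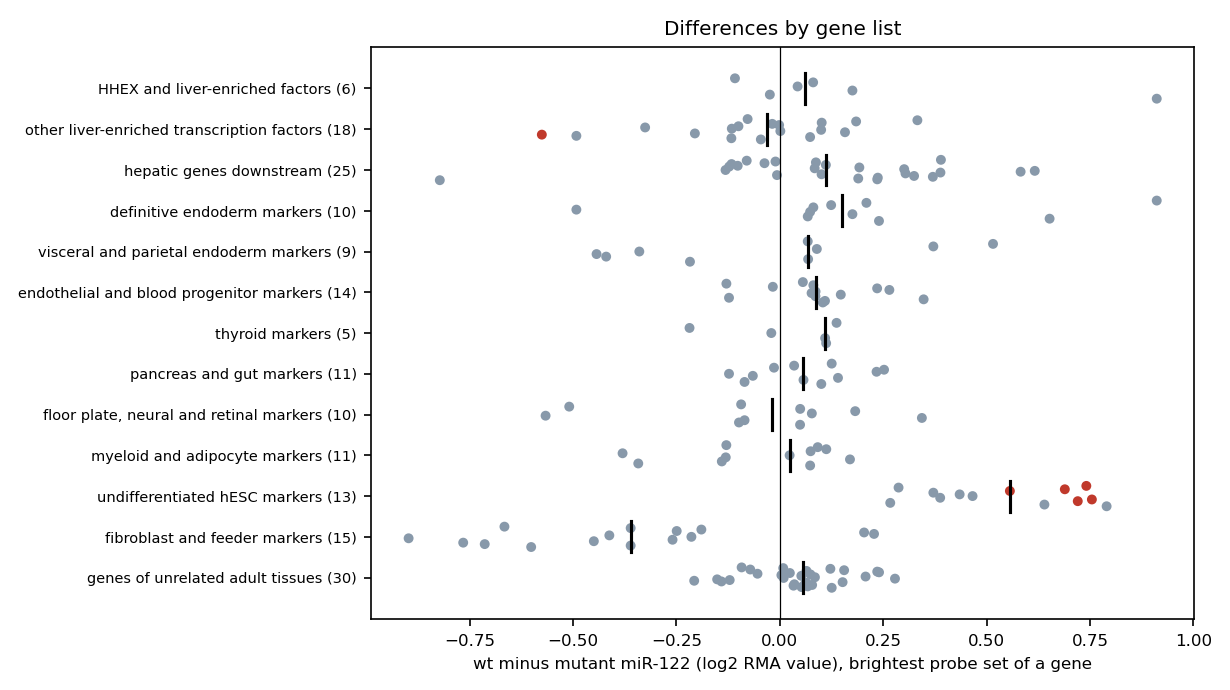
Difference between wt and mutant miR-122-expressing cells (log2 RMA value) for each measured gene of 13 lists, at its brightest probe set, with the number of genes in parentheses. Points are genes, red marks an adjusted p under 0.05 from limma, and black lines are list medians. HHEX is the rightmost point of the first and the fourth list at 0.91, and the hESC markers (median 0.56) and fibroblast markers (median -0.36) lie to either side of 0.

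The remaining lists cover the other tissues that use these factors. None of 11 pancreas and gut markers, 10 floor plate, neural and retinal markers, 11 myeloid and adipocyte markers or 9 visceral and parietal endoderm markers passed by limma. At an unadjusted p under 0.05 these lists had 1 higher and 0 lower, 0 and 2, 0 and 2, and 1 and 3 genes, in that order, against 8.84% higher and 6.87% lower of all genes. By the methods' t-test, 0, 0, 1 and 1 passed before adjustment, against 12.4% of all genes. The smallest adjusted p of the pancreas and gut list were those of CDH17, VIL1 and CDX2, with log2 differences of 0.25, 0.23 and -0.12. Those of the neural list were ISL1, STMN2 and DCX, at -0.51, -0.57 and 0.34. In the myeloid and adipocyte list they were CSF1R, PPARG and MPO, at -0.34, -0.38 and 0.17. In the visceral and parietal endoderm list they were SPARC, COL4A2 and COL4A1, matrix genes also made by fibroblasts, at -0.34, -0.44 and -0.42. Median differences were 0.06, -0.02, 0.02 and 0.07. Of the myeloid and adipocyte markers, which share CEBPA with the liver, 9 of 11 lay near background, and PPARG, the adipocyte nuclear receptor, was at 4.75, 4.86 and 4.53 on the mutant and at 4.55 and 4.12 on the wt arrays.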

How the data were processed

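The authors deposited RMA-normalized log2 values for each array, with no pooling of replicates. Groups came from sample titles. Of 22277 probe sets, 62 controls were dropped. The other 22215 went into a group-only model in limma 3.58.1 (R 4.3.3), with Benjamini-Hochberg adjustment over all of them and a threshold of 0.05. The number of arrays sets the precision, with 3 residual and 4.87 prior degrees of freedom and a median SE of 0.0878. Genes were named by the platform annotation, and a listed gene was read at its brightest probe set. The members, lists and reference genes were chosen with earlier results of these data known, the lists from general knowledge. The rule for named genes took every member probe set, the 3 smallest adjusted p and any call of each list, and the 5 genes most like HHEX. Genes named beyond this were chosen after their values were seen. No set test was made. The fit was tested on simulated data. Alternatives were the methods' t-test, a trended robust prior, filters, a replicate block, array weights, centring, leaving out each array, and averaging probe sets.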

Additional observations from a re-analysis of the deposited data

How the results depend on the processing

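The number of probe sets called, 85, was 2424 by the methods' t-test before adjustment and 0 after Benjamini-Hochberg adjustment of it (1551 higher and 873 lower before), 320 with an intensity trend and robust prior, 159 among probe sets at or above the median, and 895 with the replicate block. It was 0 to 3 over the fits without 1 array, where limma at an unadjusted p under 0.05 had 1214 to 1742 probe sets up and 749 to 1489 down. The split was 53 lower to 32 higher without _x_at and _s_at probe sets, and 97 lower to 62 higher among those at or above the median, beside 42 to 43. The count of member probe sets called, 1, was 2 by the unadjusted t-test, with the intensity trend, with the replicate block, with array weights and with centring. It was 0 by the adjusted t-test and in each fit without 1 array. The 6 calls in the gene lists became 26 by the unadjusted t-test and 0 by the adjusted one, 14 with the intensity trend, 31 with the replicate block and 0 without any 1 array.

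HHEX kept its direction in every setting run. Its brighter probe set passed at 0.91 by the unadjusted t-test, with the intensity trend and without _x_at and _s_at probe sets, at 0.83 with the replicate block, at 0.90 with array weights and at 0.92 with centring. It ranged from 0.69 to 1.13 over the fits without 1 array. The dimmer one did not pass by the adjusted t-test (0.98, adjusted p = 0.327) or without any 1 array (0.94 to 1.04). Neither could be fitted among probe sets at or above the median, as was the case for every member, and the dimmer HHEX and the middle FOXA2 probe set had no value without _s_at probe sets. Over the fits without 1 array the difference changed sign for FOXA1 (-0.11 to 0.14), the brightest probe set of FOXA2 (-0.022 to 0.37), PROX1 (-0.091 to 0.18) and CEBPA (-0.32 to 0.10). Fewer arrays leave less power, and the cause of the other changes was not tested. The arrays share only a number, as the labels give no pairing and the block has 2 pairs. Across probe sets, deviations from the group means correlated at 0.147 between the arrays numbered 1 and at 0.123 between those numbered 2. With 2 wt arrays these deviations mirror each other, so the crossed pairs were at -0.147 and -0.123 and the values are not independent. Mutant replicate 3 was at -0.019 with wt replicate 1 and at 0.019 with wt replicate 2. No pairing can be read from these values.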
